A study of Rattus norvegicus with 15 samples.

Results

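Cardiomyocytes isolated from infarcted, failing rat hearts were set against uninjured rat cardiomyocytes that had been kept in culture with vehicle, so that the cultured cells served as a second uninjured reference for the infarct profile. The comparison used 6 of the 15 samples, 3 in each group, and the 109 of 420 rat microRNA (miRNA) probes that lay above lane background in at least 3 of the 15 lanes. Lane background was the mean plus 2 SD of the negative control probes of that lane. The infarct group (MI) held adult Sprague Dawley cardiomyocytes taken 4 weeks after ligation of the left coronary artery, which led to heart failure. The vehicle group held adult rat cardiomyocytes (ARC) of the same strain that received saline for 6 h in M199 medium, with no injury. A further uninjured group, cardiomyocytes from age-matched control hearts (3 samples), is given beside them. The study as a whole profiled miRNAs in heart muscle cells damaged by infarction or by doxorubicin. All cells were plated for 1 h on laminin, unattached cells were discarded, and total RNA was extracted with TRIzol. MI cells were thus isolated from a diseased animal and plated, whereas vehicle cells spent additional hours in culture, so infarction and the lack of a culture period cannot be told apart in this comparison. Nothing in the labels tells whether replicates were separate animals or cultures, and every p-value therefore measures only the spread between samples. That spread was estimated jointly over all 15 samples in 5 groups, not over the 6 compared samples alone.

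A miRNA is a short RNA that guides an Argonaute protein to mRNAs, mainly through its seed (bases 2 to 8 from the 5′ end), and lowers the translation or stability of those mRNAs. miRNAs with the same seed form a family with shared targets. In the heart, miR-1, miR-133 and miR-499 are products of muscle cells, miR-126 is typical of endothelium, and miR-199a and miR-21 are abundant in fibroblasts.

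The mature sequences of the 12 miRNAs that differed between MI and vehicle cells are printed first, because the families described below are defined by them. All are from RefSeq (rat build GRCr8), and the capitals mark the seed. The first 9 were higher in MI cells.
miR-199a-3p: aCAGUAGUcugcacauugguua
miR-199a-5p: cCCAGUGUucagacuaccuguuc
let-7f: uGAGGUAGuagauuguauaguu
miR-98: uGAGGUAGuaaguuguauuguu
miR-99b: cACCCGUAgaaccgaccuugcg
miR-15b: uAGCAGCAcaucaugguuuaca
miR-28: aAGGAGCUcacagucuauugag
miR-103: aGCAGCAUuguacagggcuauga
miR-26a: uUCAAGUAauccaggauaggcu
The last 3 were lower in MI cells.
miR-133b: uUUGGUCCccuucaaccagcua
miR-1224: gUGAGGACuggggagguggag
miR-1949: uAUACCAGgaugucagcauaguu
Of these 12, let-7f and miR-98 shared a seed, and the other 10 seeds differed from it and from each other.

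Some miRNAs that share a seed with a called miRNA are printed next, since the families below rest on them and probes for near-identical miRNAs can share signal. Their own levels did not pass the test.
let-7a: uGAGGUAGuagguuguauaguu
let-7c: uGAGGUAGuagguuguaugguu
miR-107: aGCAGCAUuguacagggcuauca
miR-26b: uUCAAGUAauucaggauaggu
miR-133a: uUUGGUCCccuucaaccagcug
miR-16: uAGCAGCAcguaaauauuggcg
miR-195: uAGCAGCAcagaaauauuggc
miR-322: cAGCAGCAauucauguuuugga
miR-100: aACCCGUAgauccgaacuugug
The let-7f and let-7a sequences differed in 1 of 22 bases, as did miR-133b and miR-133a, and miR-103 and miR-107 differed in 1 of 23. The miR-15b and miR-16 sequences shared the seed but differed in 8 of 22 bases. How far a probe read the other member of such a pair was not tested.

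The nCounter assay joins each miRNA to a tag and counts single tagged molecules by a coloured barcode, 1 lane per sample. Lanes held 40381 to 77375 miRNA counts for MI and 122854 to 137746 for vehicle, so MI values rest on fewer counts. The positive controls also summed to fewer counts, 4229 to 9661 in MI lanes and 21124 to 24037 in vehicle lanes. The part of this in the miRNA differences was not tested. Lane background, relative to miRNA counts, was 272 to 337 CPM in MI lanes and 265 to 330 CPM in vehicle lanes. All 3 MI lanes exceeded it for 78 of the 109 miRNAs, and all 3 vehicle lanes for 91. The 5 most abundant miRNAs over the 6 lanes were miR-1, miR-126, miR-29a, miR-22 and miR-145. MI replicate 3 differed from the rest of its group. Its chi-square over miRNAs, divided by the degrees of freedom, was 10.4 against MI replicate 1 and 11.3 against MI replicate 2, whereas replicates 1 and 2 gave 1.82 and pairs of vehicle samples 1.59 to 1.73. These low values lie little above counting error, so the samples of a group may not be independent. The median SD over miRNAs on the log2 scale was 0.29 among MI samples and 0.11 among vehicle samples.

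Of 109 miRNAs tested, 12 (11%) differed between MI and vehicle cells at an adjusted p under 0.05 by edgeR's quasi-likelihood test with Benjamini-Hochberg adjustment, 9 higher (8.26%) and 3 lower (2.75%). The groups did not overlap for 47 miRNAs (43.1%), 21 of them higher (19.3%) and 26 lower (23.9%), and all 12 called miRNAs were among the 47. Of the 74 miRNAs above background in all 6 lanes, 10 (13.5%) were called. An unadjusted p under 0.05 was reached by 23 miRNAs (21.1%). The median log2 fold change over all 109 was 0.02. With relative log expression scaling in place of TMM, 2 were higher and 3 lower, with scaling by the positive controls 9 were higher and 1 lower, and with scaling by the housekeeping mRNAs none was higher and 2 were lower. The positive-control scaling moved the median log2 of all miRNAs to 0.53. Without MI replicate 3, 12 miRNAs were again called, 8 of them shared with the 12 above. The others, miR-28, miR-98, miR-103 and miR-133b, missed the threshold (adjusted p = 0.267 for miR-28 and 0.066 for the other 3). None of the 12 changed direction under any of the 21 alternatives tried that gave it a value.

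**Figure D1:**
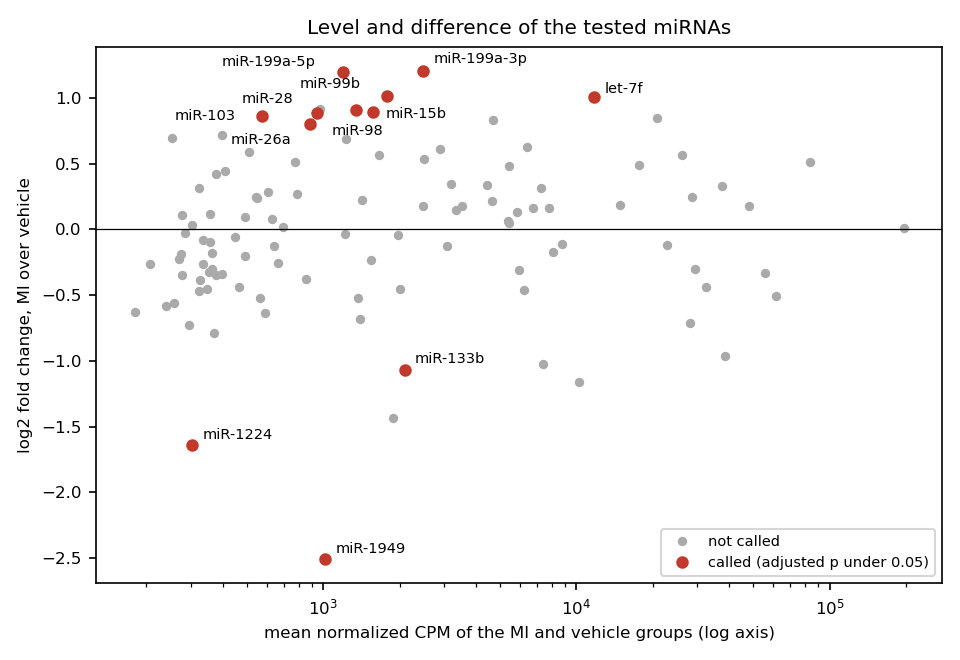
Log2 fold change of MI over vehicle (y axis) against the mean normalized CPM of the MI and vehicle groups (x axis, log scale) for the 109 tested miRNAs. The 12 called miRNAs are red and named; the 9 higher ones lie between 0.80 and 1.20, and miR-1949, at -2.51, lies farthest from 0.

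The 2 arms of miR-199a had the highest log2 values of the 109 miRNAs. This miRNA is abundant in fibroblasts, and in rat heart muscle cells it is known to repress the hypoxia factor Hif1a. The miR-199a-3p probe gave 3830, 3874 and 2621 CPM in MI samples 1 to 3, against 1466, 1504 and 1524 CPM in vehicle samples and 550, 636 and 518 CPM in age-matched controls. Every MI sample lay above every vehicle sample, and every vehicle sample above every control. The mean was 3442 ± 711 CPM in MI cells and 1498 ± 29.5 CPM in vehicle cells (SD, n = 3 each), a 2.30-fold difference (log2 1.20, SE 0.26, adjusted p = 0.00352). The control levels lay only just above the background of their lanes, 495 to 575 CPM, so no exact fold against controls can be read. Against them the MI level gave a log2 value of 2.59, and the vehicle level itself gave 1.39 (adjusted p = 0.00148). These comparisons share samples, and the last one is the test of whether the MI effect differed between the 2 references.

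The other arm of the hairpin, miR-199a-5p, gave 1737, 2201 and 1033 CPM in MI samples, against 754, 774 and 659 CPM in vehicle samples (2.28-fold, log2 1.19, SE 0.28, adjusted p = 0.00701). It lay above background in no control lane, where 303, 302 and 351 CPM were read. MI replicate 3 was the lowest MI sample for both arms and still above every vehicle sample. In GRCr8 the arms lie 16 bases apart on the plus strand, at chr13:77116294-77116315 (3p) and chr13:77116255-77116277 (5p), within the span of Dnm3.

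The let-7 family, which is abundant in differentiated cells, held 2 of 8 measured members that were higher in MI cells, let-7f and miR-98, where 8.26% of all miRNAs were called higher, and none that was lower. Its median log2 was 0.34, beside 0.02 over all miRNAs. The level of let-7f was 12274, 17697 and 17057 CPM in MI samples, against 6833, 8554 and 8095 CPM in vehicle samples (log2 1.00, SE 0.27, adjusted p = 0.0186). The vehicle samples lay below the age-matched controls as well as below MI, since the controls gave 19169, 13011 and 12572 CPM. The log2 difference was 0.07 for MI over controls (adjusted p = 0.848) and -0.93 for vehicle over controls (adjusted p = 0.0171).

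The miR-98 probe gave 1665, 1609 and 2006 CPM in MI samples, against 705, 1044 and 1071 CPM in vehicle samples (1.87-fold, log2 0.90, SE 0.27, adjusted p = 0.0287). Controls read 1430, 906 and 1003 CPM, so they overlapped the vehicle samples but not the MI samples. let-7f has 2 loci with the same mature sequence. The locus at chrX:24460052-24460073 lies 589 bases from miR-98 at chrX:24460663-24460684, both on the plus strand within the span of Huwe1. The other, at chr17:16320508-16320529 on the plus strand, lies 341 bases from let-7a and 1743 bases from let-7d. Of the other members, let-7c gave 23835, 27749 and 28911 CPM in MI samples, against 13826, 16326 and 14714 CPM in vehicle samples, groups that did not overlap (log2 0.84, adjusted p = 0.0646). The log2 values of let-7a, let-7b, let-7e, let-7i and let-7d were 0.49, 0.19, 0.15, 0.05 and -0.12, none past the test, and those of let-7i and let-7d changed sign under some scalings.

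The miR-15 family represses Bcl2 and in mice limits the division of heart muscle cells. Of its 5 listed miRNAs on the panel, miR-497 did not pass the filter and was not tested. The 4 tested had positive log2 values, with a median of 0.86, beside 0.02 over all miRNAs. Of them, 1 passed the test as higher (8.26% of all miRNAs did). That member, miR-15b, gave 2188, 2201 and 1728 CPM in MI samples, against 977, 1190 and 1135 CPM in vehicle samples (1.85-fold, log2 0.89, SE 0.29, adjusted p = 0.0435). Every MI sample lay above every vehicle sample and every control, which read 715, 1271 and 1070 CPM. The miR-15b locus, chr2:155555197-155555218, and the miR-16 locus, chr2:155555343-155555364, lie 124 bases apart on the plus strand within the span of Smc4. For miR-16 the levels were 32707, 35831 and 24602 CPM in MI samples, against 20135, 20552 and 22198 CPM in vehicle samples, again without overlap (log2 0.57, adjusted p = 0.17).

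The remaining tested members of the miR-15 family split by sample. For miR-195, MI samples 1 and 2 gave 1522 and 1635 CPM and MI replicate 3 gave 655 CPM, against 782, 562 and 691 CPM in vehicle samples (log2 0.91, adjusted p = 0.0897). For miR-322, a rodent member of the family, MI samples 1 and 2 gave 7969 and 7504 CPM and replicate 3 gave 2542 CPM, against 3308, 3277 and 3548 CPM in vehicle samples (log2 0.83, adjusted p = 0.17). MI replicate 3 thus lay within or below the vehicle samples for both. Without that sample miR-195 had a log2 value of 1.22 (adjusted p = 0.0203) and miR-322 of 1.20 (adjusted p = 0.0324). Leaving out the lowest MI sample raises the value by construction, so these values are no test of a rise. Without MI replicate 1 or 2 the adjusted p was 0.261 or 0.403 for miR-195 and 0.552 or 0.48 for miR-322. Against age-matched controls, 4 of 4 tested members of the family were called higher in MI cells. Of the 109 miRNAs, 15.6% were called higher there and 37.6% were called in either direction. For miR-195 that call is against background signal, as no control lane was above background (385, 413 and 418 CPM).

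miR-450a, which lies 5191 bases from miR-322 on the X chromosome, showed the same split, with 2664, 2433 and 854 CPM in MI samples, against 1389, 1394 and 1246 CPM in vehicle samples (log2 0.56, adjusted p = 0.279). Without MI replicate 3 its log2 value was 0.92 (adjusted p = 0.0305). Here too the sample left out was the lowest, and without MI replicate 1 or 2 the adjusted p was 0.681 or 0.558. Vehicle cells were above age-matched controls for miR-322 (log2 1.19, adjusted p = 0.0306) and for miR-450a (log2 1.21, adjusted p = 0.0141). In the controls, miR-450a was above background in only 1 lane. The remaining 4 members of that cluster on the panel lay above background in none of the 6 lanes.

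**Figure D2:**
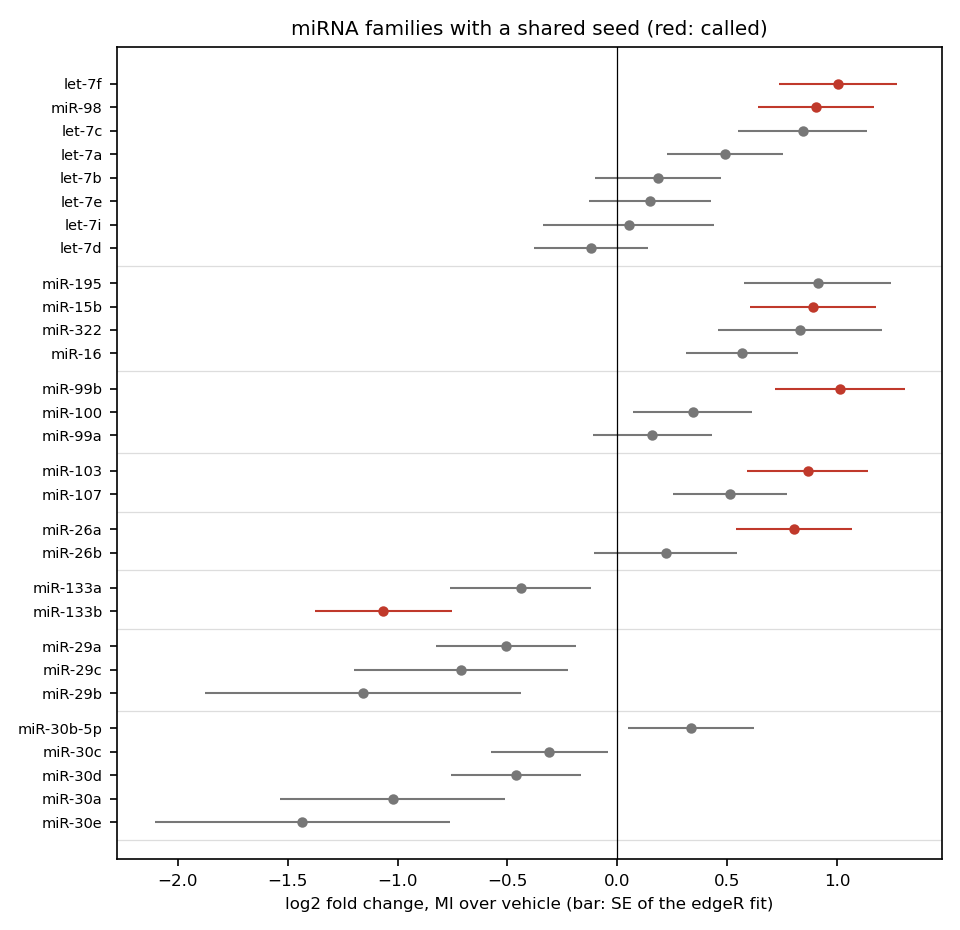
Log2 fold change of MI over vehicle with its SE from the edgeR fit (x axis) for members of seed families (y axis, grouped by family; red, called). The 4 tested miR-15 family members all lie above 0 and the 3 miR-29 family members all lie below 0. The widest SEs are those of miR-29b (0.72) and miR-30e (0.67).

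The miR-99/100 family, known repressors of the growth kinase mTOR, held 1 of 3 members that was higher (8.26% of all miRNAs were). The level of miR-99b was 2141, 2638 and 2383 CPM in MI samples, against 1180, 1190 and 1190 CPM in vehicle samples (2.01-fold, log2 1.01, SE 0.30, adjusted p = 0.0287). Age-matched controls read 1623, 1366 and 1404 CPM, between the MI and the vehicle samples. The miR-99b gene, at chr1:67350070-67350091, shares a stretch of the plus strand with let-7e and miR-125a-5p within the span of Spaca6. From that stretch, let-7e had a log2 value of 0.15 (adjusted p = 0.77) and miR-125a-5p of 0.63 (adjusted p = 0.17), and the groups did not overlap for miR-125a-5p. In the family, miR-100 and miR-99a had log2 values of 0.34 and 0.16.

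For miR-103, which with miR-107 is known to lower insulin sensitivity in mice, the 3 samples of each group lay close together. The MI samples gave 737, 734 and 755 CPM, against 412, 380 and 429 CPM in vehicle samples (1.82-fold, log2 0.87, SE 0.28, adjusted p = 0.0435). The vehicle levels lay not far above the background of their lanes, 265 to 330 CPM, so the fold is not exact. With background subtracted the log2 value was 1.08 and the call was lost (adjusted p = 0.1005). Age-matched controls gave 1045, 794 and 585 CPM, so MI cells lay within the range of controls (log2 -0.10, adjusted p = 0.822) and vehicle cells lay below it (log2 -0.97, adjusted p = 0.0171). The level of miR-107 was 999, 772 and 973 CPM in MI samples, against 565, 693 and 651 CPM in vehicle samples, without overlap (log2 0.51, adjusted p = 0.244). miR-103 lies at chr3:138963278-138963300 on the plus strand, within the span of Pank2, and miR-107 within that of Pank1.

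The miR-26 family, known to repress the chromatin enzyme Ezh2, held 1 of 2 members that was higher (8.26% of all miRNAs were). miR-26a (chr8:127633063-127633084, plus strand, within the span of Ctdspl) gave 1118, 1313 and 933 CPM in MI samples, against 691, 562 and 683 CPM in vehicle samples (1.75-fold, log2 0.80, SE 0.26, adjusted p = 0.0473). Controls gave 963, 858 and 786 CPM, partly within the MI range. For miR-26b the groups overlapped, with 1855, 1943 and 774 CPM in MI samples, against 1361, 1372 and 1206 CPM in vehicle samples (log2 0.22, adjusted p = 0.71). miR-28 (chr11:89480303-89480324, minus strand, within the span of Lpp) gave 1070, 849 and 1767 CPM in MI samples, against 733, 715 and 532 CPM in vehicle samples (1.85-fold, log2 0.88, SE 0.28, adjusted p = 0.0424). Here MI replicate 3 was the highest, and without it the log2 value was 0.52 (adjusted p = 0.267).

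Of the 3 miRNAs that were lower in MI cells, miR-1949 differed most. It gave 167, 232 and 516 CPM in MI samples, against 1829, 1744 and 1619 CPM in vehicle samples and 550, 397 and 301 CPM in age-matched controls. It was above background in 1 of 3 MI lanes, all 3 vehicle lanes and 1 of 3 control lanes, so its high level was that of the vehicle cells. The mean was 305 ± 186 CPM in MI cells and 1731 ± 105 CPM in vehicle cells (SD, n = 3 each), a log2 value of -2.51 (SE 0.32, adjusted p = 2.09e-06) that includes background signal in the MI lanes. As 2 of 3 MI lanes gave only background, no exact fold can be read from it. Of these 3 groups, only vehicle, where it is high, had all lanes above background, so the filter itself favoured a difference. MI over controls gave a log2 value of -0.42 (adjusted p = 0.406), and vehicle over controls 2.09 (adjusted p = 3.44e-05). It lies at chr18:27429753-27429775 on the plus strand, within the span of Matr3.

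miR-1224, which in mammals is cut from a short intron without the usual Drosha step, gave 95.1, 142 and 199 CPM in MI samples, against 412, 496 and 476 CPM in vehicle samples (log2 -1.64, SE 0.34, adjusted p = 0.00278). It was above background in no MI lane, in all 3 vehicle lanes and in no control lane, where 303, 413 and 234 CPM were read. The MI value is therefore a background level and no fold is given; with background subtracted the log2 value was -2.89. Of these 3 groups, only vehicle carried it past the filter, the group where it is high. Its locus is chr11:93811355-93811375 on the minus strand, within the span of Vwa5b2. The background of a lane was similar in MI and vehicle cells and higher in the controls, at 495 to 575 CPM.

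**Figure D3:**
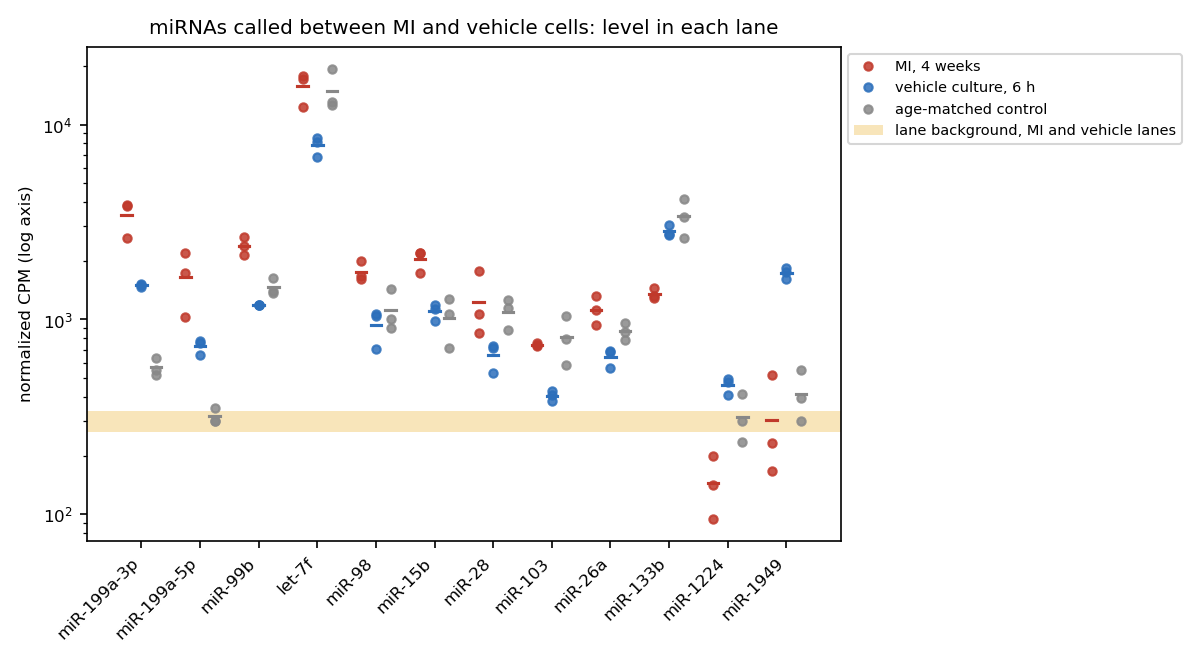
Normalized CPM (y axis, log scale) of the 12 called miRNAs in each lane, with MI, vehicle and age-matched control samples side by side, horizontal lines at the group means and a band at the lane background of the MI and vehicle lanes. MI points of miR-1224 lie below the band, and those of miR-1949 lie below or above it, whereas the vehicle points of both lie above it.

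Among heart and striated muscle miRNAs, 1 of the 5 measured, miR-133b, was lower in MI cells, where 2.75% of all miRNAs were called lower, and none was higher. The median log2 was -0.52, beside 0.02 over all miRNAs. That median is the uncorrected value of miR-208, a probe marked for background signal that is described below. miR-133b is made in muscle and with miR-133a is known in rodent heart to repress connective tissue growth factor. It gave 1451, 1326 and 1291 CPM in MI samples, against 3043, 2752 and 2714 CPM in vehicle samples and 2613, 4162 and 3360 CPM in age-matched controls. The MI mean of 1356 ± 84 CPM lay below the vehicle mean of 2836 ± 180 CPM (SD, n = 3 each) by 2.09-fold (log2 -1.07, SE 0.31, adjusted p = 0.0287). Against controls the log2 value was -1.32 (adjusted p = 0.00211), and that of vehicle over controls was -0.26 (adjusted p = 0.546). Its locus is chr9:30594629-30594650 on the plus strand.

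The muscle miRNA miR-499, from an intron of the myosin gene Myh7b, gave 26261, 28045 and 24503 CPM in MI samples, against 50795, 51899 and 50872 CPM in vehicle samples and 46561, 45770 and 45742 CPM in controls. The MI samples lay below all vehicle and control samples, and with the spread shared over all 5 groups the test was not passed (log2 -0.96, SE 0.59, adjusted p = 0.338). In a fit of the MI and vehicle samples alone, miR-499 passed (log2 -0.98, adjusted p = 0.000562). That fit called 31 of the 109 miRNAs, 15 of them lower. miR-133a gave 23478, 25355 and 34014 CPM in MI samples, against 37967, 37827 and 36571 CPM in vehicle samples (log2 -0.44, adjusted p = 0.406), and this value turned to 0.07 under positive-control scaling.

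miR-1, the most abundant miRNA of the panel, did not separate the groups. It gave 168056, 170109 and 251580 CPM in MI samples, against 187650, 195282 and 203336 CPM in vehicle samples (log2 0.01, SE 0.23, adjusted p = 0.971), and its sign changed with the scaling. The deposited data mark miR-208, a product of the cardiac myosin gene Myh6, as a probe with background signal. Its uncorrected counts gave 1070, 1210 and 1092 CPM in MI samples, against 1612, 1606 and 1627 CPM in vehicle samples (log2 -0.52, adjusted p = 0.292). With the authors' correction the log2 value was 1.09 (adjusted p = 0.55), so the direction of miR-208 depended on that correction. Of the other muscle miRNAs on the panel, miR-208b-3p lay above background in none of the 6 lanes.

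The miR-29 family, which represses collagen mRNAs, had negative log2 values for all 3 members and a median of -0.71, with groups that did not overlap, but no member passed the test. Of all 109 miRNAs, 23.9% were lower without overlap. miR-29a gave 49453, 52421 and 50316 CPM in MI samples, against 72654, 72071 and 71586 CPM in vehicle samples (log2 -0.51, adjusted p = 0.338). miR-29b gave 8421, 7349 and 3316 CPM in MI samples, against 14245, 14400 and 13928 CPM in vehicle samples (log2 -1.16, SE 0.72, adjusted p = 0.338). For miR-29c the log2 value was -0.71 (adjusted p = 0.382). The fit of the 2 groups alone called all 3, with log2 values of -0.52, -1.21 and -0.74, and it called 15 of the 109 miRNAs lower. Under positive-control scaling miR-29a turned to 0.02.

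The miR-30 family is abundant in heart muscle, and its 5 measured miRNAs had log2 values of both signs, none past the test. miR-30e gave 1285, 1158 and 616 CPM in MI samples, against 2987, 2970 and 2310 CPM in vehicle samples (log2 -1.43, SE 0.67, adjusted p = 0.239). miR-30a gave 6613, 5020 and 2919 CPM in MI samples, against 10294, 9678 and 9563 CPM in vehicle samples (log2 -1.02, SE 0.51, adjusted p = 0.263). Neither group pair overlapped (23.9% of all miRNAs were lower without overlap), and MI replicate 3 was the lowest sample for both. The log2 values of miR-30d, miR-30c and miR-30b-5p were -0.46, -0.31 and 0.33, also without overlap (19.3% of all miRNAs were higher without overlap). Under positive-control scaling those of miR-30d and miR-30c turned to 0.06 and 0.20. The fit of the 2 groups alone called miR-30e, miR-30a and miR-30d lower, among 15 of the 109 miRNAs called lower there.

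Markers of other heart cell types were measured in all groups. In bulk RNA, fewer cells of a type and less RNA per cell cannot be told apart. The endothelial miR-126, which lies within the span of Egfl7 and is known to sustain vessel growth, gave 131043, 117880 and 46623 CPM in MI samples, against 66721, 69801 and 70808 CPM in vehicle samples and 20104, 21447 and 22102 CPM in age-matched controls. MI replicate 3 lay below the vehicle samples and the other MI samples above them, and the log2 value was 0.51 (SE 0.30, adjusted p = 0.318). Without MI replicate 3 it was 0.85 (adjusted p = 0.039), which leaving out the lowest MI sample raises by construction. Without MI replicate 1 or 2 the log2 value was 0.25 or 0.36 (adjusted p = 0.701 or 0.558). Vehicle cells were 3.26-fold above controls (log2 1.70, adjusted p = 0.000447) and MI cells 4.64-fold (log2 2.21, adjusted p = 5.55e-06). The endothelial markers miR-221 and miR-222 were above background in none of the 6 lanes.

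The 2 leukocyte miRNAs that were tested, miR-146a and miR-150, were likewise lowest in MI replicate 3 within the MI group. miR-146a, a brake on NF-κB signalling, gave 4020, 5341 and 1827 CPM in MI samples, against 3176, 3445 and 3302 CPM in vehicle samples (log2 0.18, adjusted p = 0.77). miR-150, a lymphocyte miRNA, gave 9895, 11249 and 2919 CPM in MI samples, against 6323, 6831 and 6206 CPM in vehicle samples (log2 0.31, SE 0.60, adjusted p = 0.772). MI replicate 3 lay below every vehicle sample for both. The leukocyte list as a whole summed to 5659 to 17401 CPM in MI samples, 10174 to 11093 CPM in vehicle samples and 5910 to 6133 CPM in controls. Of its 6 members on the panel, miR-223 was above background in none of the 6 lanes, and the erythroid miR-451 and miR-144 in none.

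Of the 5 measured fibroblast miRNAs, the 2 arms of miR-199a were higher in MI cells (8.26% of all miRNAs were), and none was lower. The median log2 of the 5 was 0.48, beside 0.02 over all miRNAs. miR-21, which is induced in fibroblasts of the stressed rodent heart, gave 5994, 7169 and 5758 CPM in MI samples, against 4879, 4445 and 4270 CPM in vehicle samples and 3465, 3622 and 3695 CPM in controls. Every MI sample lay above every vehicle sample, and every vehicle sample above every control, and the log2 value of MI over vehicle was 0.48 (adjusted p = 0.34). The fibroblast list summed to 11219 to 15457 CPM in MI samples, 8714 to 9178 CPM in vehicle samples and 5830 to 6704 CPM in controls, and miR-214 was above background in none of the 6 lanes. miR-152 went the other way, with 1427, 1493 and 1311 CPM in MI samples, against 1563, 1744 and 1683 CPM in vehicle samples, without overlap (log2 -0.24, adjusted p = 0.626), and turned to 0.29 under positive-control scaling. The log2 value of miR-10a-5p was 0.09. Smooth muscle miR-143 and miR-145 had log2 values of -0.13 and 0.18, and that of miR-143 changed sign under positive-control scaling. Muscle miRNAs summed to 220602 to 312817 CPM in MI samples, 281458 to 295715 CPM in vehicle samples and 352864 to 355329 CPM in controls. The part of these cell type levels in the differences of the called miRNAs was not tested.

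**Figure D4:**
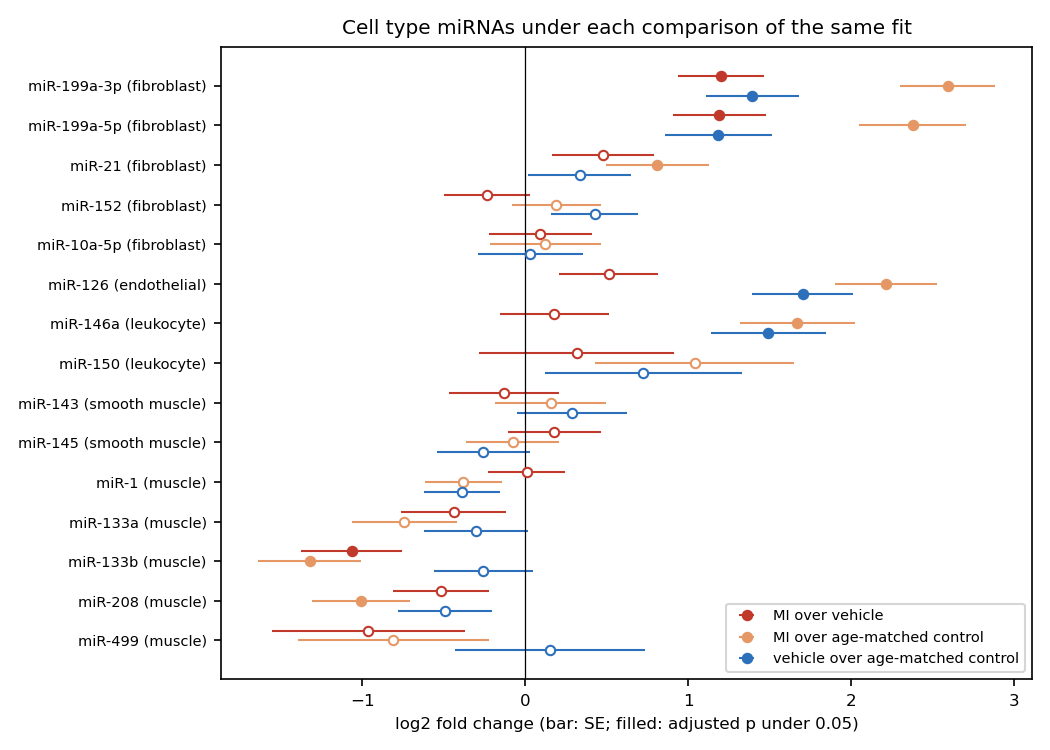
Log2 fold change with its SE (x axis) for cell type miRNAs (y axis) under MI over vehicle, MI over age-matched control and vehicle over age-matched control in the same edgeR fit; filled points passed the test. For miR-126 and miR-146a both comparisons with controls are filled (2.21 and 1.70 for miR-126), and MI over vehicle is not (0.51).

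Among the 11 listed miRNAs reported raised in rodent heart failure, 8 were measured, and all 8 had positive log2 values in MI over vehicle, with a median of 0.45, as had 56 of all 109 miRNAs. The 2 that passed the test were again the arms of miR-199a, where 8.26% of all miRNAs were called higher. The others were miR-195, miR-21, miR-132 at 0.42, miR-125b-5p at 0.33, miR-23a at 0.25 and miR-24 at 0.22. Against age-matched controls the same list had 5 members called higher (15.6% of all miRNAs were) and a median log2 of 0.97, and vehicle over controls had 2 called higher (8.26% of all miRNAs were) and a median of 0.55. Of those called against controls, miR-199a-5p, miR-195 and miR-132 were above background in no control lane, and miR-199a-3p only just above it.

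The other lists held no called member. In the miR-17-92 and paralogous clusters, which promote cell division, 6 members were measured with a median log2 of 0.07. The miR-23/24/27 clusters had 5 members with a median of 0.07, and the miR-125 family had 2 with a median of 0.48. The p53-responsive miR-34a gave 285, 270 and 258 CPM in MI samples, against 475, 394 and 540 CPM in vehicle samples (log2 -0.79, adjusted p = 0.17), at or below background in 2 of 3 MI lanes. The hypoxia miRNA miR-210 gave 809, 682 and 735 CPM in MI samples, against 831, 1000 and 1056 CPM in vehicle samples (log2 -0.38, adjusted p = 0.485), a value that turned to 0.15 under positive-control scaling. Of 31 miRNAs of the Dlk1-Dio3 cluster, 29 were above background in none of the 6 lanes.

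Set side by side with both uninjured groups, the called miRNAs fell into different orders. The arms of miR-199a had their lowest mean in controls, a middle one in vehicle cells and the highest in MI cells. For let-7f and miR-103 vehicle cells were below age-matched controls by the test while MI cells were not distinguished from them, and for miR-1949 vehicle cells were above controls by the test. miR-15b and miR-133b differed in MI cells from both uninjured groups (adjusted p = 0.0138 and 0.00211 against controls), and for them vehicle over controls gave log2 values of 0.09 and -0.26, neither past the test. miR-1224 was above background in neither MI nor control lanes, so its call between those groups (log2 -1.11, adjusted p = 0.0278) compares background signal. The remaining rises, of miR-99b, miR-98, miR-28 and miR-26a, had log2 values of 0.71, 0.68, 0.16 and 0.38 against controls, none past the test. Over all 109 miRNAs, 41 (37.6%) were called between MI and controls, 17 higher (15.6%) and 24 lower (22%). Between vehicle and controls 20 (18.3%) were called, 9 higher (8.26%) and 11 lower (10.1%). Lane background was higher in controls (495 to 575 CPM) than in MI or vehicle lanes. With only miRNAs above background in all lanes of both groups, 16 of 63 were called between MI and controls, 9 higher and 7 lower. Between vehicle and controls 4 of 67 were then called, 4 higher and 0 lower. The calls of let-7f and miR-103 as lower in vehicle cells were thus lost there, although both were above background in every vehicle and control lane. The part of background in the lower calls was not tested. These comparisons share samples.

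**Figure D5:**
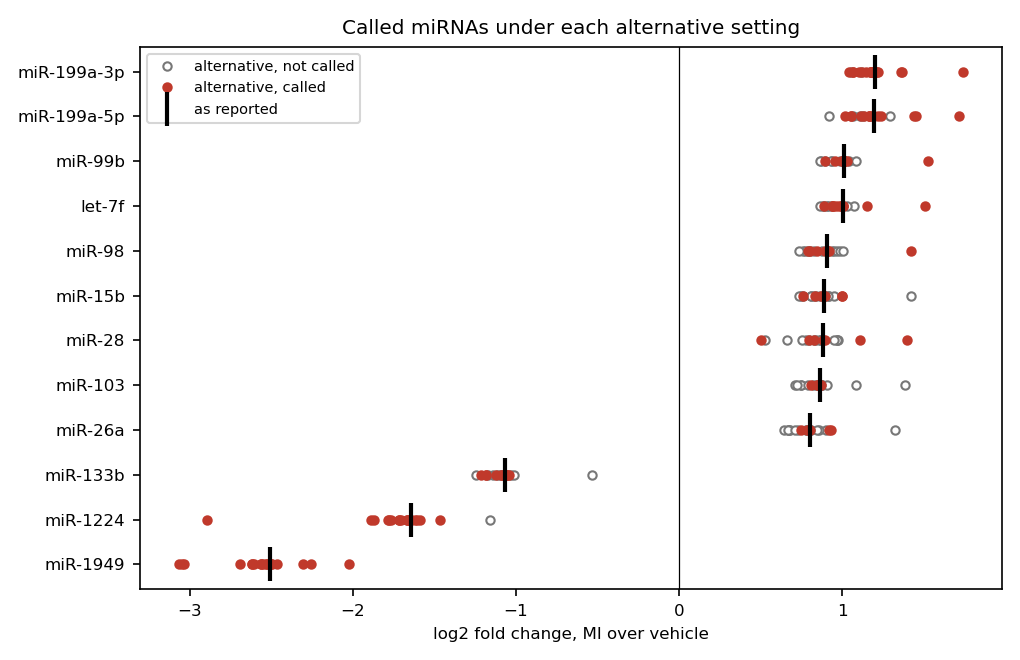
Log2 fold change of MI over vehicle (x axis) for the 12 called miRNAs (y axis) under each alternative setting (filled, called; open, not called), with a black bar at the reported value. miR-1949 was called in all 20 alternatives that gave it a value and miR-26a in 5 of 21, and no point crosses 0.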

How the data were processed

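The deposited first sheet holds barcode counts per probe as read, without normalization, and was entered under the unit of expected counts. The deposited second sheet holds expected counts after the authors' correction of 3 marked probes (miR-208, miR-290 and miR-466c). The 2 other deposited sheets hold signal, scaled by the authors to the positive-control sum and then to the miRNA sum, per the file headers. The software behind them is not given in the sources.

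Uncorrected counts of all 15 samples in 5 groups entered edgeR's quasi-likelihood fit (edgeR 4.0.16, R 4.3.3) with TMM scaling, the robust option and 1 mean per group. P-values were adjusted by Benjamini-Hochberg over 109 miRNAs within each of 3 comparisons, and SEs come from the same fit. CPM are relative to each lane's TMM-scaled miRNA total. The threshold for a call was an adjusted p under 0.05. Levels of different miRNAs depend on their probes and were not compared by test. Lane totals were 40381 to 77375 counts for MI, 122854 to 137746 for vehicle and 36977 to 62663 for age-matched controls. This limits low values in MI and control lanes most. The deviations of same-numbered MI and vehicle samples correlated at -0.12, -0.11 and -0.03, so the numbers were not taken to pair the samples.

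The members, lists and tests were chosen with earlier results of these data known. The named miRNAs are called miRNAs whose groups do not overlap (up to 12 in each direction, with at least 1 group above background in all 3 lanes), the 5 most abundant, and members of the lists. Of 46 probes looked up, 42 had a RefSeq sequence, with the arm taken from miRNA nomenclature. Alternatives were other scalings, filters, tools, count sheets and samples (DESeq2 1.42.0, limma 3.58.1).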

Additional observations from a re-analysis of the deposited data

Results flagged for a closer look

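The housekeeping mRNA probes lay outside the miRNA comparison. The Actb probe gave 2997, 2381 and 2641 CPM relative to miRNA counts in MI samples, against 1731, 1927 and 2341 CPM in vehicle samples, a ratio of means of 1.34 without overlap between the groups. The ratios of B2m, Rpl19 and Gapdh were 1.26, 1.07 and 0.988, and their groups overlapped. This signal was picked out because it lay in data outside the main measurement and above the level of the uninjured cells in every MI sample; the difference was not tested.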

How the results depend on the processing

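The count of 12 miRNAs called between MI and vehicle was 5 with relative log expression scaling, 2 with housekeeping scaling, 3 of 420 with no filter, 3 of 74 with only miRNAs above background in all 6 lanes, 4 with background subtracted and 6 with the authors' corrected counts. It was 31 in a fit of the 2 groups alone, 11 of them shared with the 12, and 44 without the 3 least typical samples of an earlier analysis (culture DOX 3, in vivo DOX 1 and MI 3), which shared all 12. It was 3 to 12 when 1 sample was left out, with 3 to 5 calls without any single sample other than MI replicate 3. The settings with 31 and 44 calls leave out samples that otherwise enter the shared estimate of spread. Positive-control scaling, the lane total, DESeq2, edgeR without the robust option, limma and the 12 lanes of one stage position (an alternative chosen after seeing the data) gave 10 to 17. With the replicate number as a block the count was 8. The MI minus control count of 41 was 16 with only miRNAs above background in all lanes, 23 with background subtracted, 68 without the least typical samples and 21 to 34 with 1 sample left out. It was 33 with the replicate block. Positive-control scaling gave 53 higher and 1 lower there, with a median log2 of 1.26 and 16 of the 41 calls turned in sign, and housekeeping scaling gave 5 higher and 32 lower with a median of -0.63. The vehicle minus control count of 20 was 10 with relative log expression scaling, 4 with only miRNAs above background in all lanes, 7 with background subtracted, 12 with limma, 67 in the groups alone, 54 without the least typical samples, 4 to 18 with 1 sample left out, and 19 with the block. Positive-control scaling gave 16 higher and none lower there (median 0.67), and housekeeping scaling 3 higher and 25 lower (median -0.48). Beyond fewer genes or samples entering some fits, the cause was not tested.

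For the 12 called miRNAs, 143 of 250 values under alternatives stayed called, the others lost the call and none changed sign. miR-1949 was called in 20 of 20 alternatives, miR-1224 in 19 of 20, miR-199a-3p in 19 of 21, miR-199a-5p in 16, let-7f in 13, miR-133b in 11, miR-99b in 10, miR-98 in 9, miR-15b in 8, miR-28 in 7, miR-103 in 6 and miR-26a in 5. Over all 64 named miRNAs, 75 values changed sign with no call in either fit. Depth limits miRNAs near background most, as MI lanes held fewer counts than vehicle lanes.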
